A study of Mus musculus with 6 samples.

Results

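Distal peaks in the most gene-dense neighbourhoods of the autosomes are stretches of open chromatin that lie among many genes but away from the gene starts themselves. A peak was included if at least 30 protein-coding genes started within 500 kb of its midpoint and if the midpoint was more than 1 kb from every TSS of a coding transcript. Peaks within 50 kb of a gene of the Olfr or Vmn families, which encode chemoreceptors, were left out. Of 44155 autosomal peaks in 2 ATAC-seq peak lists, 1819 qualified, 993 of 21698 in the WT list and 826 of 22457 in the Spen KO clone 3 list. The lists come from HATX cells, a haploid mESC line of mixed genomic background that carries a doxycycline-inducible Xist transgene and was grown in serum and LIF, and they stand for its WT and Spen KO states. The study's 6 samples are WT, Spen KO clone 2 and Spen KO clone 3, each untreated or given doxycycline at 2 ug/ml for 48 hr. A list is named for its line alone, so its doxycycline state is not given, and the authors had already combined the 2 technical replicates of each line into it. Clone 2 was not analysed here, so the KO line is 1 clone, and loss of Spen cannot be told apart from other differences between these clones or cultures.

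The cell type was checked against marker genes. Of 10 mESC markers, 4 had a peak within 1 kb of a coding TSS in the WT list and 4 in the clone 3 list. Zfp42 ranked above 90.3% of WT peaks and 90.7% of clone 3 peaks by peak score, the mean of the authors' 2 replicate values, and Tfcp2l1 and Fgf4 also had a peak in both lists. Sox2 had a promoter peak in the WT list only (percentile 23.7) and Klf4 in the clone 3 list only (7.08). Pou5f1, Nanog, Esrrb, Tdgf1 and Dppa5a had no peak midpoint within 1 kb in either list, so by this measure these defining genes did not show the label. Some midpoints lay just beyond that distance. The nearest WT midpoint was 1.07 kb from a TSS of Pou5f1, 1.01 kb from Esrrb and 1.33 kb from Tdgf1. In clone 3 these distances were 1.08, 1.10 and 1.32 kb. Nanog and Dppa5a were farther off, at 4.71 and 6.72 kb in WT and 4.72 and 3.21 kb in clone 3. Within 1 kb a WT peak was found for 1 of 4 fibroblast (feeder) markers (Thy1), 0 of 3 trophoblast, 2 of 4 endoderm (Gata4 and Foxa2) and 1 of 3 neural markers (Pax6). In the clone 3 list these counts were 0 of 4, 0 of 3, 1 of 4 and 1 of 3. All 10 mESC genes had a peak of each list within 20 kb, a distance chosen after these values were seen. At that distance the other cell types had 1 of 4, 1 of 3, 2 of 4 and 2 of 3 markers with a WT peak and 0 of 4, 2 of 3, 2 of 4 and 2 of 3 with a clone 3 peak. Sox1 was not found in the annotation by symbol and counts as without a peak.

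ATAC-seq reads out where the Tn5 transposase can insert adapters, which is mostly at promoters, enhancers and sites bound by factors such as CTCF. Spen is an RNA-binding protein that brings histone deacetylase-linked repressors to chromatin, and Xist needs it to silence the X chromosome. Gene-dense parts of the mouse genome are rich in GC and poor in LINE repeats, are mostly active, and hold several gene clusters such as the MHC, histone and keratin genes.

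In these neighbourhoods more peaks were found in WT alone than in clone 3 alone, the reverse of distal peaks elsewhere as a whole, most of which have fewer than 10 genes around them. Of the 993 WT members, 415 (41.8%, 95% Wilson interval 38.8 to 44.9) overlapped no clone 3 peak by 1 bp or more and are called WT-only, against 26.0% of all autosomal and 29.9% of all distal WT peaks. Of the 826 clone 3 members, 249 (30.1%, interval 27.1 to 33.4) overlapped no WT peak and are called clone 3-only, against 28.4% of all autosomal and 37.5% of all distal peaks of that list. The remaining 578 WT and 577 clone 3 members were shared. The ratio of clone 3-only to WT-only members was 0.600 (interval 0.511 to 0.704), and it was 1.51 (interval 1.45 to 1.58) among all other distal autosomal peaks, which are called distal peaks elsewhere and include those left out near chemoreceptor genes. Among peaks with an IDR of 0.01 or less it was 0.332, against 0.756 for all autosomal peaks, where it was 1.13 without that limit, and among peaks at or above the median score of their list 0.343, with 10.1% of members WT-only and 4.29% clone 3-only. At that score the shares were 6.32% and 9.23% of all autosomal peaks, a ratio of 1.51, and 365 of 5218 and 15.3% of all distal peaks, a ratio of 2.68. Intervals here cover counting error only, and peaks of a neighbourhood are not replicates of a line. With 1 list per line no test between WT and Spen KO was possible.

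The shares followed gene density in steps, in classes that leave out all distal peaks near chemoreceptor genes. Among distal peaks with no coding gene start within 500 kb, 11.2% of WT peaks were WT-only and 48.2% of clone 3 peaks were clone 3-only. With 1 to 9 gene starts the shares were 25.3% and 39.4%, with 10 to 19 they were 34.5% and 34.2%, and with 20 to 29 they were 37.6% and 32.7%. The ratio of clone 3-only to WT-only peaks went from 7.34 to 1.92, 0.989 and 0.808 (interval 0.709 to 0.921), so a WT excess was already present at 20 to 29 genes and is not particular to the members. The WT-only share rose through every class up to the 41.8% of the members, and the clone 3-only share fell. Finer classes were less even, with 38.5% WT-only and 32.0% clone 3-only at 20 to 24 genes. Just outside the threshold, at 25 to 29 genes, 36.1% of 501 WT peaks were WT-only and 33.9% of 487 clone 3 peaks were clone 3-only. Just inside it, at 30 to 34 genes, the shares were 43.6% of 314 and 31.7% of 259. Above the threshold the WT-only share did not climb further, at 40.5% with 35 to 39 genes, 41.3% with 40 to 49 and 41.1% with 50 or more. The clone 3-only share was 27.0%, 29.2% and 34.0% in these classes, with overlapping intervals, and the ratio in the densest was 0.738 (interval 0.498 to 1.09).

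Promoter peaks of the same neighbourhoods leaned the same way. Of 1673 WT promoter peaks there, 26.5% (interval 24.4 to 28.6) were WT-only, against 20.7% of all autosomal promoter peaks. Of 1404 clone 3 promoter peaks, 12.3% (interval 10.6 to 14.1) were clone 3-only, against 13.0% of all. The ratio of clone 3-only to WT-only promoter peaks was 0.388 (interval 0.324 to 0.464), against 0.573 (interval 0.531 to 0.617) for all autosomal promoter peaks. Autosomal promoter peaks as a whole thus tended to the WT list, less so with 1 to 9 gene starts (ratio 0.885, interval 0.766 to 1.02), while the clone 3-only share of promoter peaks stayed between 12.3% and 14.2% in the 4 classes with at least 1 gene start.

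Shared members also ranked lower in clone 3 than in WT. The rank shift compares the score percentile of a shared peak between lists, as clone 3 minus WT, and its median over the 578 shared members was -3.83 (95% binomial interval -5.64 to -2.31) percentile points. It was negative for 359 of them (62.1%), compared with 50.5% of all 16053 shared WT autosomal peaks, 38.9% of shared distal peaks elsewhere and 72.4% of shared promoter peaks of the same neighbourhoods. By gene density the median shift of distal peaks went from 13.6 with no gene start to 5.34, 0.0195, -1.19 and then -3.83 in the members. The size of the shift depended on the replicate, with -5.89 from the values of replicate 2 alone and -2.29 from those of replicate 1 alone. It was -2.18 with a threshold of 20 genes, -2.25 with the peaks near chemoreceptor genes kept, -5.87 with 40 genes, -6.18 in percentiles among distal peaks and -6.97 at an IDR of 0.01 or less.

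Members were weaker than the average peak of their list. Their median score percentile was 35.2 in WT and 32.6 in clone 3, against 42.8 and 46.4 for distal peaks elsewhere, and only 34.9% and 33.9% of them lay above the list median. WT-only members had a median percentile of 14.6 and clone 3-only members of 12.1, against 52.1 and 47.0 for shared members. Peak strength moved with being found in 1 list, so the shares were also set out by quartile of the score of distal peaks. In the lowest quartile 76.8% of 319 WT members were WT-only, against 62.0% elsewhere, and 55.0% of 322 clone 3 members were clone 3-only, against 69.4%. In the highest quartile 10 of 197 WT members (5.08%) were WT-only, against 2.51% elsewhere, and 2 of 144 clone 3 members (1.39%) were clone 3-only, against 6.53%. The members' WT-only share was above and their clone 3-only share below that of distal peaks elsewhere in all 4 quartiles, with overlapping intervals for WT in the 2 upper quartiles.

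Base composition moved with gene density too. The 300 bp around the midpoint had a median GC content of 56.7% in WT members and 56.3% in clone 3 members, against 52.7% and 52.3% in distal peaks elsewhere. Within each GC quartile of all distal peaks the WT-only share of members was higher than elsewhere, at 34.8% against 23.6% in the lowest quartile and 38.9% against 25.7% in the highest. The clone 3-only share was lower, at 35.3% against 39.9% in the lowest and 26.9% against 42.2% in the highest, but only in the highest quartile did the intervals not overlap. In the lowest GC quartile 36 clone 3-only members stood against 32 WT-only, a ratio of 1.12 (interval 0.679 to 1.87), so the WT excess was not seen in the members poorest in GC. Distance to a TSS gave a like picture. Between 1 and 5 kb from a coding TSS 47.1% of 329 WT members were WT-only, against 34.9% elsewhere, and beyond 20 kb 35.1% of 131 were, against 25.9%. For clone 3 members the shares were 35.7% against 37.5% between 1 and 5 kb and 29.8% against 39.2% beyond 20 kb.

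Most members lay between genes or in introns. In the WT list 47.8% were intergenic, 34.1% were in an intron of a coding gene, 8.46% had their midpoint in coding sequence and 4.43% in a UTR. Coding sequence held 2.02% of WT distal peaks elsewhere. The WT-only share was 41.3% for intergenic, 41.6% for intronic and 46.4% for the 84 coding-sequence members, and the clone 3-only share was 28.5%, 32.8% and 34.3%. Among distal peaks elsewhere the WT-only shares were 26.5%, 31.4% and 38.0%, and the clone 3-only shares 38.5%, 37.9% and 44.6%. The median distance of members from a coding TSS, which the choice by gene number makes short, was 7.40 kb in WT and 7.74 kb in clone 3. The nearest TSS itself had a peak within 1 kb in the WT list for 33.3% (interval 28.9 to 37.9) of WT-only members and 36.3% (interval 32.5 to 40.3) of shared WT members. In the clone 3 list it had a peak for 26.9% (interval 21.8 to 32.7) of clone 3-only members and 32.8% (interval 29.1 to 36.7) of shared members. Among distal peaks elsewhere these shares were higher, at 40.3% of WT-only and 39.8% of shared WT peaks. For clone 3-only and shared clone 3 peaks elsewhere they were 40.8% and 38.6%. Members found in 1 list rarely sat beside a peak of the other list, as 15 of 415 WT-only and 12 of 249 clone 3-only members were within 1 kb of one, and the median gap was 12.9 and 10.1 kb.

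Repeated sequence was scarce among the members. Multi-copy peaks are those in which 50% or more of all 24-base sequences have at least 10 copies in the genome. This held for 3 of 415 WT-only members (0.723%), 12 of 578 shared WT members (2.08%) and 10 of 249 clone 3-only members (4.02%, interval 2.20 to 7.23). With at least 50 copies the shared share was 1.04%. Among peaks at or above the list median in score, 0% of 35 WT-only and 8.33% of 12 clone 3-only members were multi-copy. Among distal peaks elsewhere, 5.57% of WT-only and 21.2% (interval 20.1 to 22.4) of clone 3-only peaks were multi-copy. The strong repeat content of clone 3-only distal peaks was thus largely missing from gene-dense neighbourhoods. CpG-rich sequence, with at least 50% GC and an observed to expected CpG ratio of at least 0.6, went the other way. It was found in 203 of 993 WT members (20.4%) and 149 of 826 clone 3 members, against 11.5% and 12.2% of distal peaks elsewhere and 79.9% of WT promoter peaks.

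Sequence motifs were searched on both strands of the same 300 bp, and none of the 9 contains another. The CTCF core matched 59 of 993 WT members (5.94%, interval 4.63 to 7.59) and 54 of 826 clone 3 members (6.54%, interval 5.04 to 8.43), against 3.71% and 3.34% of distal peaks elsewhere. WT-only (6.27%), clone 3-only (6.83%) and shared WT members (5.71%) did not differ beyond their intervals. Among distal peaks elsewhere these classes had 5.51% (interval 4.79 to 6.34), 3.90% and 2.98%. The WT-only share elsewhere lay within the interval of WT-only members (4.31 to 9.02), so the higher share of WT members was seen in the shared peaks. The NF-Y string CCAATCA was in 12.5% of shared WT members, 7.71% (interval 5.51 to 10.7) of WT-only and 4.02% (interval 2.20 to 7.23) of clone 3-only members. In distal peaks elsewhere the same classes had 7.91%, 7.64% and 4.83%, in that order. The WT-only and clone 3-only shares elsewhere lay within the intervals of the members. A low clone 3-only share was thus not particular to the members. The NF-Y string matched 10.5% of all WT members, 7.83% of WT distal peaks elsewhere and 12.3% of WT promoter peaks. The GC box GGGCGG was in 37.1% of WT members, between the 24.6% of distal peaks elsewhere and the 72.7% of promoter peaks. The Yy1 string AAGATGGC matched 1.91% of WT and 2.78% of clone 3 members, against 6.31% and 11.2% elsewhere. The Oct4 octamer ATGCAAAT (2.82% of WT members against 4.78% elsewhere) and the Sox2 string CATTGTT (4.13% against 5.38%) were less frequent in members, for Sox2 within the interval of 3.06 to 5.55. In clone 3 the Sox2 string was in 3.63% of members (interval 2.56 to 5.14), against 5.27% elsewhere. AP-1 (TGACTCA) matched 7.51% of clone 3 members against 7.60% elsewhere, and 84 of 993 WT members (8.46%) against 1042 of 11572. ETS (CCGGAAGT) matched 1.71% of WT members (interval 1.07 to 2.72) against 1.12%, and 1.82% of clone 3 members (interval 1.10 to 2.97) against 0.971%. Esrrb (TCAAGGTCA) matched 0.705% of WT members against 0.795%, and 1.21% of clone 3 members against 1.02%. The Esrrb string was in 7 of 249 clone 3-only members (2.81%, interval 1.37 to 5.69), against 1.31% (interval 1.03 to 1.66) of clone 3-only distal peaks elsewhere. These intervals overlap, and over the whole peak the shares were 2.81% and 1.74%. A match of letters is not a bound site.

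The highest-scoring WT-only members were of several kinds. The peak at chr3:96163172-96164122 (mm9) ranked above 81.0% of WT autosomal peaks, with replicate values of 24.1 and 35.9. It was intergenic, its midpoint lay 393 bp from a U1 snRNA gene, and the nearest clone 3 peak was 13.7 kb away. Its nearest coding TSS, 65.5 kb off, was that of Fcgr1, a high-affinity receptor for IgG. A peak in an intron of Bahcc1 at chr11:120114041-120114564, with replicate values of 29.8 and 29.2, was at percentile 80.1 and 16.3 kb from the TSS. The peak at chr3:95028252-95028668 (percentile 78.2) was in an intron of Mllt11, a gene known from leukaemia translocations, 4.14 kb from its TSS, which had a peak in the WT list and not in the clone 3 list. Itgam, which encodes the integrin chain CD11b, held a peak in an intron at chr7:135223466-135223941 (percentile 72.9). The central 300 bp of the 2 strongest are given on the plus strand to show what WT-only sequence looks like, with motif matches in capitals. These are a Sox2 string beside the U1 gene and a GC box in Bahcc1, and the GC content was 47.3% and 58.0%.
WT-only, near a U1 gene, chr3:96163498-96163797: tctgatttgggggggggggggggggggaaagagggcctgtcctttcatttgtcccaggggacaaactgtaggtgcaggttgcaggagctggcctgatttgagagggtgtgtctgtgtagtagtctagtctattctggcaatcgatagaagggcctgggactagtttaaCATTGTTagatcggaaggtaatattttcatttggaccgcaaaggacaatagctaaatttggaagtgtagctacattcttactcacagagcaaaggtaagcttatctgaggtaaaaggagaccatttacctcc
WT-only, intron of Bahcc1, chr11:120114153-120114452: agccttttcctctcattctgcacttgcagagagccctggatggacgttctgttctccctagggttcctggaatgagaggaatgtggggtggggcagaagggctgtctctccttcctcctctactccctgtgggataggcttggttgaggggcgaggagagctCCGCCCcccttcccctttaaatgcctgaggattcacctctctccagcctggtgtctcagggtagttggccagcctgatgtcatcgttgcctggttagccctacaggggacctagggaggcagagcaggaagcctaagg

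The 5 highest-scoring clone 3-only members were at percentiles from 60.4 to 79.3. The peak at chr1:175595728-175596180 ranked above 79.3% of clone 3 autosomal peaks, with replicate values of 26.2 and 26.0. It was intergenic, 8.09 kb from the TSS of Pydc3, a pyrin-domain gene, and 67.0 kb from the nearest WT peak. An intron of Rgs14, a regulator of G protein signalling, held the peak at chr13:55480179-55480750 (percentile 72.1, replicate values 22.0 and 24.3). Another was in an intron of D930028M14Rik at chr7:25940538-25941187 (percentile 69.1). The peak at chr3:96298357-96298837 (percentile 62.8) was 30.5 kb from the TSS of Hfe2, the hemojuvelin gene. It lay 5945 bp from a U1 gene and 5.08 kb from the nearest WT peak. The peak at chr17:36844278-36845197 (percentile 60.4) was 35.6 kb from the TSS of the class I gene H2-M1. This H2-M1 peak was multi-copy, with 93.3% of its 24-base sequences present 10 or more times. None of the 5 had a peak at the nearest coding TSS in either list. In the central 300 bp (plus strand) of the 2 strongest, given for comparison with the WT-only sequences, the Pydc3 peak held no searched motif and the Rgs14 peak 4 GC boxes, shown in capitals.
Clone 3-only, near Pydc3, chr1:175595805-175596104: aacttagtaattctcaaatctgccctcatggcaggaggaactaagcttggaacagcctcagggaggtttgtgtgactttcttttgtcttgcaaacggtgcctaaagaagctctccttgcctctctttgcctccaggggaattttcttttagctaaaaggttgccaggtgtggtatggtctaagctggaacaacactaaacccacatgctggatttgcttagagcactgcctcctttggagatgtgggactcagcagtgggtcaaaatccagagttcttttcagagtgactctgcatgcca
Clone 3-only, intron of Rgs14, chr13:55480315-55480614: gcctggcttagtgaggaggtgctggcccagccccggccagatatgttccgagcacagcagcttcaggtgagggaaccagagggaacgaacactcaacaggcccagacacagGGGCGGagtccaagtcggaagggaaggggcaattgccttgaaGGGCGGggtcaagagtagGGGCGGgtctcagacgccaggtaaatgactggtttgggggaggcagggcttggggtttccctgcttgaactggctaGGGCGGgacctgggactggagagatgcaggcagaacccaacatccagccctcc

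The shared members with the highest mean percentile over both lists lay at the top of each list by that choice. At chr17:36368060-36368686 an intergenic peak 26.6 kb from Rpp21, which encodes a subunit of RNase P, was at percentile 99.9 in each list. Its replicate values in WT were 135.9 and 151.1. An intergenic peak at chr8:72240286-72241217, 6.13 kb from Zfp869, was at percentile 99.6 in both. The peaks at chr8:3754269-3754697 near the lectin gene Cd209a, chr8:86280647-86281039 near the adhesion receptor gene Cd97 and chr3:90096664-90097438 near Dennd4b were at WT percentiles 99.5, 99.2 and 99.3, with rank shifts of -0.318, 0.286 and -0.497. The 2 highest are CpG-rich, with a GC content of 73.7% and 63.7% and 37 and 25 CpG in 300 bp, against 3 and 4 CpG in the WT-only and 1 and 9 in the clone 3-only sequences above. Their central 300 bp (plus strand) show this CpG content, and capitals mark GC boxes near Rpp21 and NF-Y strings near Zfp869 on either strand.
Shared, near Rpp21, chr17:36368224-36368523: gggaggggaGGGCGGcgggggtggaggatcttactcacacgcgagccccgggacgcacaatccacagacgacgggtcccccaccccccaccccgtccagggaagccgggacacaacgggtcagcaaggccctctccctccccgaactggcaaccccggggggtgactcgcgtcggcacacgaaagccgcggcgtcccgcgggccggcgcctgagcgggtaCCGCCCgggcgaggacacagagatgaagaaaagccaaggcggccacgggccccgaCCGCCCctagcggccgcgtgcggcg
Shared, near Zfp869, chr8:72240602-72240901: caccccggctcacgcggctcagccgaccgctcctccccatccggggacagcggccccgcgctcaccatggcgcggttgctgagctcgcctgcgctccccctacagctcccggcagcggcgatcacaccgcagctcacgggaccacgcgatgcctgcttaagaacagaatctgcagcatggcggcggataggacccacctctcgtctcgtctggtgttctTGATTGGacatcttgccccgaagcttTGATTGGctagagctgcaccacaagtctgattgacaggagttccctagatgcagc

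Single shared members moved far in rank. The largest shift down was at chr13:23493456-23494239, intergenic and 21.9 kb from Abt1, an activator of basal transcription, among the histone genes of chromosome 13. It fell from percentile 85.5 in WT to 4.17 in clone 3, a shift of -81.4. A GC-rich intergenic peak at chr7:25964503-25965119 (77.0% GC) shifted by -61.0, from 82.8 to 21.8, and was the WT peak nearest to the clone 3-only peak in D930028M14Rik, 23.3 kb away. The peak at chr3:96177821-96178849, 391 bp from a U1 gene, shifted by -56.8, from 78.3 to 21.5. The 3 largest shifts up were all in coding sequence. They were at chr15:76545559-76546093 in Lrrc24 (15.6 to 61.9, a shift of 46.2), chr6:124800592-124800915 in Leprel2, a collagen prolyl hydroxylase gene (8.21 to 54.2, a shift of 46.0), and chr8:107807031-107807354 in 4931428F04Rik (14.4 to 59.6, a shift of 45.2).

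The members with the most genes around them sat in gene clusters. A clone 3-only peak at chr11:99686264-99687984 had 81 coding gene starts within 500 kb, was nearest to Gm11564 and consisted wholly of multi-copy sequence. In the MHC, a clone 3-only peak at chr17:35078620-35078980 near Neu1, the lysosomal sialidase gene, and a shared peak at chr17:35086537-35087027 near the heat shock gene Hspa1b each had 72. The Hspa1b peak shifted by -23.3, from a WT percentile of 40.6.

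Members at genes for small nuclear RNAs and tRNA-type sequences were singled out after their values were seen. U1 and U2 snRNAs are part of the spliceosome and are made from repeated gene arrays. Within 500 bp of a U1 or U2 gene there were 11 WT members, 2 of them WT-only, and 10 clone 3 members, all shared. Distal peaks elsewhere had a like make-up there, with 1 of 9 WT-only and 0 of 9 clone 3-only, and over all autosomal peaks the shares were 26.0% and 28.4%. They lay in the U1 array at chr3:96131910-96293275 and beside U2 genes at chr11:101465871-101520450 and chr11:83084687-83085932. The second WT-only peak of this set was at chr3:96253926-96255470, in an intron of BC107364 (percentile 33.3). Shared peaks of the U1 array went both ways, from percentile 89.0 to 97.8 at chr3:96289981-96290838, from 79.0 to 91.7 at chr3:96131910-96133139, and down by 56.8 points at the peak given above. U2-side peaks went both ways too, from 60.7 to 45.1 at chr11:83084687-83085932, from 55.8 to 41.3 at chr11:101465871-101466978, from 76.3 to 85.1 at chr11:101503093-101503783 and from 79.9 to 87.7 at chr11:101506549-101507266.

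A tRNA gene is read by RNA polymerase III from an internal promoter of an A box and a B box. Members with this arrangement of both boxes numbered 10 in WT, of which 5 were WT-only, and 7 in clone 3, of which 1 was clone 3-only. Distal peaks elsewhere with it numbered 10 in WT, 2 of them WT-only, and 8 in clone 3, 1 of them clone 3-only. The counts of peaks with both boxes are small and the intervals of their shares overlap. Over all autosomal peaks 26.0% of WT peaks were WT-only and 28.4% of clone 3 peaks were clone 3-only.

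Chaining members whose midpoints were within 500 kb gave 98 neighbourhoods. WT-only members outnumbered clone 3-only members in 61, the reverse held in 24, and the counts were equal in 13. Of the 58 with at least 10 members, 42 had more WT-only and 12 more clone 3-only members. Over all members 41.8% of WT peaks were WT-only and 30.1% of clone 3 peaks clone 3-only, against 26.0% and 28.4% of all autosomal peaks. The neighbourhood with the most members, chr7:50601438-53269207, spans 146 coding gene starts and held 75 members, with 14 WT-only and 7 clone 3-only, around Bcat2, Syt3 and Vsig10l. At chr8:72240286-74512769, around Il12rb1 and Gdf1, 68 members included 15 WT-only and 5 clone 3-only, and the median shift of 24 shared WT members was -10.5. The MHC at chr17:33736689-37171068 held 62 members with 14 WT-only and 12 clone 3-only.

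Neighbourhoods differed in direction. The fifth by size, chr17:55949831-57306821 around Kdm4b, a histone demethylase gene, and Ptprs, went the other way. It had 4 WT-only and 10 clone 3-only members of 60, and a median shift of 4.49 over 23 shared members. The neighbourhood at chr7:19340579-20514200 around Bcl3, Pvr and Fosb had 9 WT-only and 12 clone 3-only of 53 members, as many clone 3-only members as the MHC. The most WT-only members, 18 of 49, were at chr10:79058016-81309406, around Nfic and Gna11, which had 8 clone 3-only members. At chr7:28051652-30010440, around Spnb4 and Ltbp4, 15 WT-only members stood against 9. Across chromosomes, WT-only members outnumbered clone 3-only members on 15 of the 18 chromosomes that had members, were equal on 6 and 18, and were fewer on chromosome 1 (6 against 7). Without any 1 chromosome the ratio of clone 3-only to WT-only members stayed between 0.560, without chromosome 7, and 0.633, without chromosome 15. Over all autosomal peaks this ratio was 1.13, and over distal peaks elsewhere 1.51.

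By nearest coding TSS, the members belonged to 933 genes, and few genes had many. BC107364 in the U1 array had 10, 4 of them WT-only and none clone 3-only. Ier2, an immediate early gene, had 9, with 2 WT-only and 1 clone 3-only. Gm5146 had 8, with 3 and 1, Zfp184 had 8, with 2 and 0, and all 8 members nearest to Refbp2, an RNA export factor gene, were shared. Over all members 41.8% of WT peaks were WT-only and 30.1% of clone 3 peaks clone 3-only, against 26.0% and 28.4% of all autosomal peaks. The counts at these genes are too small to set apart from the shares of all members, which lie within their intervals.

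Gene lists were counted by the nearest coding TSS, and most were too small to set apart from the 41.8% WT-only and 30.1% clone 3-only of all members. Zfp genes, which encode zinc finger proteins, had 71 members at 37 genes, with 11 of 37 WT peaks WT-only and 8 of 34 clone 3 peaks clone 3-only. MHC genes had 18 members at 9 genes, with 2 of 9 WT-only and 2 of 9 clone 3-only. Of the 7 shared WT peaks at MHC genes, 6 ranked lower in clone 3, against 62.1% of all shared members. Near H2-K1 they shifted by -30.6 at chr17:34115578-34116010 and by -5.13 at chr17:34118045-34118514, near H2-D1 by -19.5 and near H2-Q2 by -9.80. The others shifted by -5.98 near H2-Oa, -2.34 near H2-Bl and 0.162 near H2-Q7. Keratin genes had 16 members, 4 of 10 WT peaks being WT-only and all 6 clone 3 peaks shared. The 7 members at histone genes were all shared, and the peak at chr13:23677343-23677988 in the coding sequence of Hist1h2be shifted by -34.8. The others shifted little, by -5.42 near Hist1h1a, 1.72 near Hist2h2aa2 and 1.21 near Hist2h2bb. Clustered protocadherin genes, which label single neurons, had 11 members with 3 of 6 WT-only and 2 of 5 clone 3-only. Epidermal genes (Lce and Sprr) had 5 members, none shared, with 3 WT-only and 2 clone 3-only. Hox, kallikrein and Cyp genes had 2, 2 and 4 members, and Serpin and imprinted genes had 0.

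Of the mESC regulators, 3 genes were nearest to members. Pou5f1, which encodes Oct4, had a shared peak 1.07 kb from a TSS at chr17:35641570-35642248, at percentile 34.7 in WT and 45.0 in clone 3. It also had 2 clone 3-only peaks of low rank, at chr17:35640848-35641195 (8.19) and chr17:35627369-35627715 (7.49), the nearer of them 0.374 kb from a WT peak. Lin28a, which encodes an RNA-binding protein of pluripotent cells, had a shared intronic peak at chr4:133567556-133568129 that shifted by -33.2, from 62.6 to 29.4, and its nearest TSS had a promoter peak in WT only. Utf1 had 2 WT-only and 2 shared peaks, 1 of them in an intron of Kndc1 that shifted by -22.8. Among the repressor genes linked to Spen, only Gatad2a of the NuRD complex was nearest to a member, a WT-only peak at chr8:72525084-72525563 (percentile 37.1).

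Gene families around the members were looked at after the values were seen, by the name stem shared by at least 20% of the coding genes within 500 kb. No family reached this for 1401 members, of which 42.7% were WT-only in WT and 30.2% clone 3-only in clone 3. Where a family did, the shares were 38.7% of 222 and 30.1% of 196. Over all members they were 41.8% and 30.1%, and over all autosomal peaks 26.0% and 28.4%. Olfr was the most frequent family, since genes beyond 50 kb did not exclude a peak, with 18 of 49 WT members WT-only and 16 of 47 clone 3 members clone 3-only. Around Zfp genes the counts were 8 of 16 and 6 of 14. Around keratin genes 13 of 19 WT members were WT-only (interval 46.0 to 84.6%) and 4 of 10 clone 3 members clone 3-only (interval 16.8 to 68.7%). Around histone genes the counts were 11 of 32 and 5 of 27, and around MHC genes 5 of 14 and 2 of 11, with intervals that include the shares of all members. Kallikrein neighbourhoods (3 of 15 and 4 of 16) and defensin neighbourhoods (5 of 16 and 6 of 17) were near balance. Around interferon alpha genes 1 of 8 was found in 1 list alone in each line.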

How the data were processed

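The deposited lists give peaks in mm9 coordinates, 1 for HATX WT and 1 for Spen KO clone 3. CutAdapt, Bowtie2 (against mm9) and Picard were the authors' tools before peak calling, and only uniquely placed, proper read pairs without duplicates went further. A listed peak is thus a MACS2 call (q-value cutoff 0.01, no shifting model) with an IDR below 0.05 between 2 technical replicates. Software versions are not given in the sources used here. The score used is the mean of the 2 replicate values deposited for each peak, on a scale that is not named, so only ranks within a list were compared. The other unit, peak length in bp, follows from the start and end the authors deposited.

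Peaks were joined to the GENCODE annotation and sequence of mm9 with pysam 0.24.0, numba 0.67.0 and pandas 2.3.3, and intervals were computed with scipy 1.17.1 and numpy 2.4.6, all under Python 3.11.15. Overlap by 1 bp made a peak shared. Percentiles are over the autosomal peaks of a list. Shares have 95% Wilson intervals, ratios exact binomial intervals and medians binomial intervals. The 24-base copy numbers count both strands. Named peaks are the 5 highest in score for each class of peak found in 1 list, the 5 shared peaks with the highest mean percentile, the 3 largest shifts each way and the 3 with the most genes. Named neighbourhoods are those with the most members or the most peaks found in 1 list, and other peaks belong to gene lists. Some results that this rule would name are not reported here. The steps were tested on simulated data.

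The members and lists were chosen with earlier results of these data known. Peak-strength quartiles, distance classes, chromosomes left out, CpG-rich peaks, single replicates, the 20 kb marker distance, snRNA and tRNA-type members and gene families were added after values were seen. Read depth was not known here, so its effect on how many weak peaks a list holds was not tested. Uniquely mapped reads leave young repeats and recent gene copies poorly covered.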

Additional observations from a re-analysis of the deposited data

How the results depend on the processing

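Where it was computed for the members, the ratio of clone 3-only to WT-only stayed below 1 under each alternative. The median rank shift likewise stayed below 0 where it was computed. The shift was not computed at 50% reciprocal overlap, with lists of equal length or at or above the list median in score. The ratio was not computed for single replicates or for percentiles among distal peaks. The ratio over all autosomal peaks, 1.13, did change sides at an IDR of 0.01 or less, to 0.756. With lists of equal length it was near balance, at 0.998 (interval 0.962 to 1.04). Distal peaks elsewhere were not run under most alternatives. The WT-only excess kept its direction when any chromosome was left out, with ratios from 0.560 to 0.633. No paired analysis was possible because the replicates of each line had been combined into 1 list and their numbers do not pair the lines. Read depth was not known here, 1 list per line gives no replicate check, and weak peaks make up most of those found in 1 list. For all values below the cause was not tested.

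With 20 genes as the threshold the ratio of clone 3-only to WT-only members was 0.715 and the median rank shift -2.18. With 40 genes the shift was -5.87, and with 15 genes within 250 kb the ratio was 0.711. With chemoreceptor peaks kept the shift was -2.25. With 1 replicate left out it ranged from -5.89 (without replicate 1) to -2.29 (without replicate 2). At an IDR of 0.01 or less the clone 3-only share was 19.3% (22.2% of all autosomal peaks), the ratio 0.332 and the shift -6.97. With lists of equal length the ratio was 0.483, and with percentiles among distal peaks the shift was -6.18.

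Among peaks at or above the list median in score the WT-only share was 10.1%, the clone 3-only share 4.29% and the ratio 0.343, against 6.32%, 9.23% and 1.51 for all autosomal peaks. In that set the multi-copy share was 0 of 35 for WT-only (0%) and 8.33% of 12 for clone 3-only members, and the CTCF core share of clone 3-only members was 0 of 12 (0%). With a peak of either list counted, the nearest coding TSS had one for 36.5% of clone 3-only members (26.9% with clone 3 peaks alone) and 41.0% of shared members. At 50 or more copies the multi-copy share of shared members was 1.04%. Over the whole peak the CTCF core share of shared members was 7.96% and their median GC content 55.8%.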

Other observations

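Autosomal peaks left out of the members for lying near chemoreceptor genes had shares like those of distal peaks in general. Distal autosomal peaks with as many genes around them but within 50 kb of an Olfr or Vmn chemoreceptor gene numbered 98 in WT and 116 in clone 3. Of these, 25 (25.5%, interval 17.9 to 35.0) were WT-only and 43 (37.1%, interval 28.8 to 46.1) clone 3-only, a ratio of 1.72 (interval 1.03 to 2.94). Over all distal autosomal peaks the shares were 29.9% and 37.5% and the ratio 1.41. On the X chromosome, 25 WT and 28 clone 3 peaks met the same gene number and distance, of which 7 were WT-only and 10 clone 3-only, with no X-wide share computed to set beside them.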
